A study of Mus musculus with 22 samples.

Results

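Loss of Ehmt2 in the pancreatic epithelium was examined at postnatal day 10 (PN) in 6 mice, 3 with the knockout and 3 controls, of the 22 samples in the series. The members were the libraries whose titles name a day 10 pancreas, and the comparison was made over all 13394 genes with deposited counts at this age. The knockout animals carried floxed Ehmt2 alleles and Pdx1-Cre (Pdx1-Cre;Ehmt2fl/fl, written Ehmt2fl/fl below), and the controls carried Pdx1-Cre with intact alleles (Ehmt2+/+). All were labelled C57Bl/6 and none had received caerulein, the agent used elsewhere in the series to induce pancreatitis. Each library was poly(A) RNA of a whole pancreas. The labels give each library its own animal number, and the knockouts share no number prefix with the controls. Within each genotype 2 of the 3 animals share a prefix, whose meaning is not given, so whatever it marks (such as a litter or cage) and genotype cannot be told apart.

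Ehmt2, also called G9a, places the mono- and dimethyl marks on lysine 9 of histone H3, usually in a complex with its partner Ehmt1 (GLP), and these marks are associated with silent genes in euchromatin. Pdx1 is switched on in the early pancreatic bud, so Pdx1-Cre acts in the acinar, ductal and endocrine lineages, while stroma, vessels and blood cells keep their Ehmt2. In the second week after birth mouse pups are still suckling and their acinar cells have not reached the adult enzyme mixture. A whole organ was measured, so fewer cells of a type and less RNA per cell cannot be told apart in any value below.

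The Ehmt2 transcript (chromosome 17, 34898469 to 34914052, plus strand, GRCm38) was at 70.3, 47.99 and 49.4 CPM (each gene's count as a share of the normalised library total, in parts per 1e6) in the controls and at 56.7, 41.8 and 61.7 CPM in the knockouts. The groups overlapped, with a log2 difference of -0.07 ± 0.24 (SE, n = 3 per group) and an adjusted p of 0.936. Counts over the whole gene do not show whether an internal stretch was removed, so this transcript neither checks nor contradicts the labels. Of the 25 listed genes of the H3K9 methylation machinery, which includes Ehmt1, Wiz, Setdb1 and Trim28, 0 passed in either direction in edgeR, with 0 at an unadjusted p under 0.05 and 0 by DESeq2.

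The 6 libraries held 14229980 to 30985177 counts. Digestive enzyme genes took 48.8% to 57.3% of them and mitochondrial transcripts 0.96% to 1.99%. The libraries fell into sets that crossed genotype: control 1, knockout 1 and knockout 3 correlated with one another at 0.948 to 0.984 (log2 CPM across 10115 genes, which are not independent replicates), control 2, control 3 and knockout 2 at 0.963 to 0.978, and libraries of different sets at 0.838 to 0.924. The balance of long to short genes was above 0 in the first set and below 0 in the second. Both sets hold both genotypes, so the balance was also entered in the model, and that count is given beside the main one.

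At an adjusted p under 0.1 with at least a 2-fold difference, 81 of 13394 genes passed (0.605%). More were higher in the Ehmt2fl/fl pancreas, 69 genes (0.515%), than lower, 12 genes (0.0896%). The 2 groups did not overlap for any of the 81, while non-overlap in either direction was seen for 14.3% of all genes, 8.36% with the knockouts higher and 5.93% with them lower. At an unadjusted p under 0.05 in edgeR, 744 of the 13394 genes were higher and 391 lower. Counts at this p in the lists below stand beside that background. The median log2 difference over all genes was 0.00. The differences that passed were large, with 46 of the higher genes at least 4-fold and 20 at least 16-fold above the controls, and 5 of the lower genes at least 4-fold below them. All 81 genes were also called by DESeq2, which called 216, and all 81 remained when the model held the balance of long to short genes, where 355 passed. The count changed as single libraries were left out: it was 16 without control 3, 21 without knockout 1, 23 without control 2, 51 without knockout 3, 59 without control 1 and 90 without knockout 2. Called whichever library was left out were 16 genes: Adgrg7, Adtrp, Akr1cl, Bpifb1, Cblif, Ces1g, Cyp2j5, Epb42, Fndc7, Gabrp, Gpa33, Il1rn, Itln1, Moxd1, Obp2b and Serpina6. None of the 12 lower genes was among them. Most of the 16 had control means under 1 CPM, such as Bpifb1 at 0.0811 and Serpina6 at 0.161 CPM. At that level a gene was listed only if the knockouts were higher, and leaving out a library did not change which genes were listed.

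**Figure D1:**
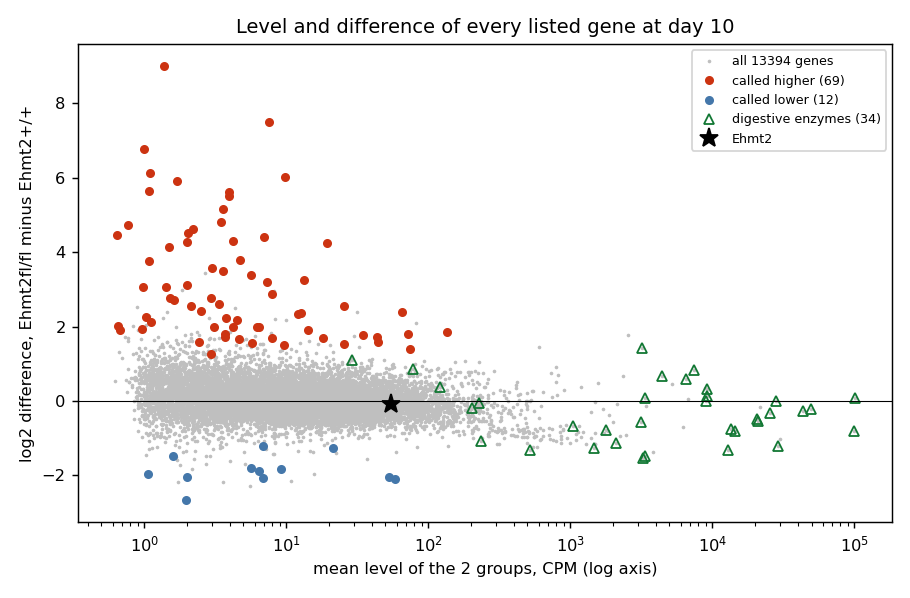
Mean level of the 2 groups in CPM (log axis) against the log2 difference between Ehmt2fl/fl and Ehmt2+/+ pancreas for each of the 13394 listed genes at day 10. The 69 genes called higher (red) lie mostly at low levels, the 12 called lower (blue) lie between, and the 34 digestive enzyme genes (triangles) and Ehmt2 (star) were not called.

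Many of the higher genes were close to silent in the controls. The control mean was under 1 CPM for 38 of the 69, against 312 of all 13394 genes (2.33%). The deposited list sets part of this: every listed gene exceeded 1 CPM in at least 3 libraries, so a gene under 1 CPM in the controls had to be higher in the knockouts to be listed at all, and 304 of the 312 were. The other 31 higher genes started from a control mean of 1 CPM or more and had a median log2 difference of 1.87. The 12 lower genes had a median control level of 9.87 CPM, against 12.1 CPM for all genes.

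CG dinucleotides were counted in the promoters of the called genes. RefSeq promoters (GRCm38.p6) were found for 52 of the 69 higher genes and 10428 listed genes. In the 250 bases before the start, the higher genes held a median of 3 CG dinucleotides and all listed genes 17. Genes with a low control level had fewer in general, with a median of 6 over the 227 promoters of genes under 1 CPM. The median was 2 for the 28 higher genes in that range and 3.5 for the 24 that started at 1 CPM or more, where listed genes had 17. Beyond this split at 1 CPM the sets were not matched for level. The 7 lower genes with a promoter had a median of 5. The promoters of Itln1, Mt1 and Chgb are examples with few and many CG. They are shown over the 150 bases before the start, a shorter stretch than the 250 counted. Each runs 5′ to 3′ on the strand of the gene, with each CG in capitals.
Itln1 (chr1:171535295-171535444, minus strand, no CG): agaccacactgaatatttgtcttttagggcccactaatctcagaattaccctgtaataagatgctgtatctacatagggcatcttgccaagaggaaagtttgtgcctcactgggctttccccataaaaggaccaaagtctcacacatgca
Mt1 (chr8:94178939-94179088, plus strand): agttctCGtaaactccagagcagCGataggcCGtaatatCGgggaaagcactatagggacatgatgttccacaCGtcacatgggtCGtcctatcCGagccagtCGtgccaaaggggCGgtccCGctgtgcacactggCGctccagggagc
Chgb (chr2:132781492-132781641, plus strand): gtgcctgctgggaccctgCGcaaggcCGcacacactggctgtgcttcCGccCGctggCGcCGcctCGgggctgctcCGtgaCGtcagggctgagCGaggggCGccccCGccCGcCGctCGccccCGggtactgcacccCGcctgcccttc
Itln1 rose from a near-silent level, while Mt1 with 11 and Chgb with 17 CG in the same stretch were already transcribed in the controls, as described below. Mt1 and Chgb both held more CG than the median of 3.5 per 250 bases for higher genes at 1 CPM or more.

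Genes of the stomach, intestine and other mucosa made up 12 of the 69 higher genes, a grouping made after their values were seen. Gpa33, a glycoprotein of the intestinal epithelium, was at 0.167, 0.194 and 0.219 CPM in the controls and at 8.18, 4.68 and 8.20 CPM in the knockouts (log2 5.16 ± 0.36, adjusted p 0.00639). Cblif, the gastric intrinsic factor that binds vitamin B12, was at 0.134, 0.194 and 0.394 CPM in the controls and at 8.42, 7.00 and 4.77 CPM in the knockouts (log2 4.81 ± 0.44). Every knockout was thus above 4 CPM for both genes and every control under 0.5 CPM. Bpifb1, a secreted protein of the airway and upper gut lining, had 6 counts in the 3 controls together and 909 in the knockouts, at 19.9, 11.6 and 13.5 CPM. The ratio was 192, with a 95% exact counting interval of 87.6 to 523. Adgrg7, an adhesion receptor known mainly from the intestine, had 1 count in the controls and 120 in the knockouts, a ratio of 152 with an interval of 26.7 to 6040. These intervals cover counting error only.

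Gkn3, a gastrokine of the stomach, was at 4.27, 3.50 and 4.51 CPM in the controls and at 21.5, 25.7 and 16.6 CPM in the knockouts (log2 2.38 ± 0.23). Plet1, a surface protein of epithelial progenitors, rose by 2.22 ± 0.23 on the log2 scale, from 1.10 to 1.53 CPM in the controls to 5.89 to 6.70 CPM in the knockouts. The junction proteins Cldn18 and Cldn2 rose by 4.24 ± 0.38 and 2.56 ± 0.26. Sftpd, a collectin of lung and other mucosa, was at 0.134, 0.622 and 0.657 CPM in the controls and at 4.51, 7.60 and 4.53 CPM in the knockouts. Cdhr5, a microvillus cadherin, and B4galnt2, a gut glycosyltransferase, were also higher (log2 2.41 and 3.13). Gkn3, Cldn18 and Cldn2 were called in 5 of the 6 fits that left out 1 library, and no longer passed without control 3. The others were less steady: Plet1 was called in 3 of these fits, Cdhr5 and B4galnt2 in 2 each and Sftpd in 1.

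The stomach and intestine marker lists did not move as wholes. Of 21 stomach genes, 8 were listed, 3 of these were called higher (Cblif, Gkn3 and Cldn18), and their median log2 difference was 1.55 against 0.00 for all genes. Without control 3, 1 of the 8 was called. The other 13, among them Gkn1, Tff1, Muc5ac and Atp4b, were not listed. The summed level of the 8 was 1773 to 2720 CPM in the controls and 1072 to 1966 CPM in the knockouts, and most of it came from Tff2, a trefoil peptide, which was at 1749 to 2667 CPM in the controls and 993.2 to 1866 CPM in the knockouts. Pga5, a pepsinogen, had a log2 difference of -2.15 ± 0.50 and did not pass (adjusted p 0.261). Of 36 intestinal genes, 18 were listed, with 3 called higher (Itln1, Gpa33 and Cdhr5), 1 called lower (Creb3l3) and a median of 0.80. Cblif, Itln1, Gpa33 and Cdhr5 had control means of 0.241, 0.288, 0.193 and 0.783 CPM and were listed only because the knockouts were higher. The medians of both lists can be raised by this listing rule. Cdx1, Cdx2, Fabp2, Muc2 and Cdh17, which define intestinal epithelium, were not listed. Fcgbp, a mucus protein (log2 2.17 ± 0.39, adjusted p 0.115), and the stem cell receptor Lgr5 (log2 1.50 ± 0.29, adjusted p 0.166) came close to the threshold. Any part that tissue of the stomach or duodenum taken with the pancreas had in these values was not tested.

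**Figure D2:**
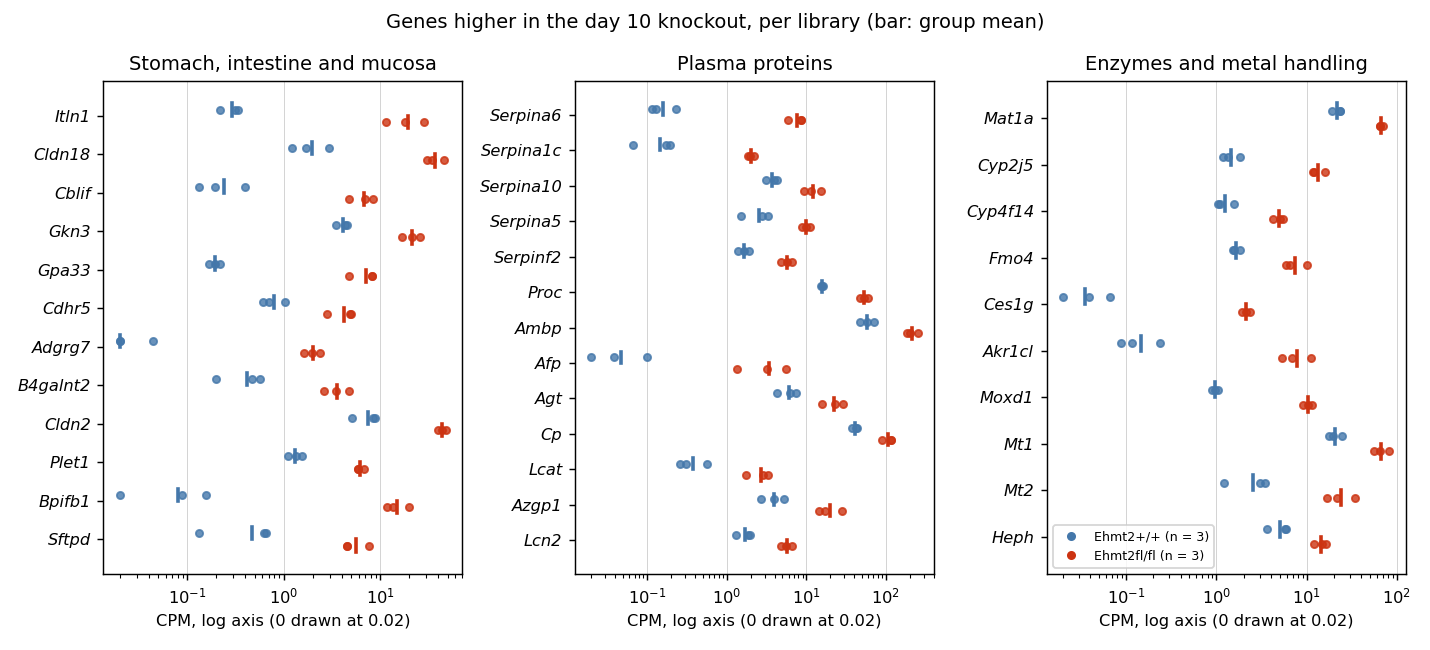
CPM (log axis, 0 drawn at 0.02) of 35 genes called higher, in each Ehmt2+/+ (blue) and Ehmt2fl/fl (red) library at day 10, with bars at the group means. For each gene the 3 knockout libraries lie above the 3 control libraries, as for Gpa33 at 4.68 to 8.20 against 0.167 to 0.219 CPM.

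Secreted proteins of blood plasma, most of them known from the liver, made up 13 of the higher genes, again grouped after their values were seen. Serpina6, the corticosteroid-binding globulin, was at 0.234, 0.117 and 0.131 CPM in the controls and at 8.60, 5.89 and 8.67 CPM in the knockouts (log2 5.51 ± 0.36, adjusted p 0.00639). Serpinf2, the plasmin inhibitor, was at 1.90, 1.63 and 1.40 CPM in the controls and at 5.81, 6.70 and 4.89 CPM in the knockouts (log2 1.81 ± 0.24). Agt, the angiotensin precursor, was at 4.24, 6.22 and 7.53 CPM in the controls and at 22.8, 28.8 and 15.96 CPM in the knockouts (log2 1.91 ± 0.31). In each case the lowest knockout was above the highest control. Lcat, which esterifies cholesterol on lipoproteins, and Azgp1, a zinc-binding glycoprotein, rose by 2.76 ± 0.42 and 2.35 ± 0.36.

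Serpina6 belongs to a block of serine protease inhibitor genes on chromosome 12. Of the 5 listed Serpina genes in a span of 0.627 Mb, 4 were called higher: Serpina10 (103614786 to 103631444), Serpina6 (103646630 to 103657212), Serpina1c (103894926 to 103904887) and Serpina5 (104101113 to 104106137). Their log2 differences were 1.68 ± 0.25, 5.51 ± 0.36, 3.77 ± 0.41 and 1.98 ± 0.31. The fifth, Serpina3g, had a log2 difference of 1.67 ± 0.93 and did not pass (adjusted p 0.682). Serpina10 inhibits factor Xa together with protein Z and Serpina5 inhibits activated protein C, whose precursor Proc was also higher (log2 1.77 ± 0.18). Serpina1c belongs to a family of near-identical alpha-1-antitrypsin copies, so its counts may include reads of its neighbours. Other pairs of called genes stood close together as well: Mt2 and Mt1 with 5.5 kb between them, Adgrg7 and Tmem45a with 9.3 kb, Itln1 and Cd244a with 23.9 kb, B4galnt2 and Igf2bp1 with 42.3 kb, and Mat1a and Sftpd with 47.8 kb, all higher. The called genes formed 16 pairs within 1 Mb, including a lower pair, 1600002K03Rik and Creb3l3, with 909.2 kb. Of all listed genes 0.605% were called, and whether called genes stood closer than other genes was not tested. Within 5 Mb of Ehmt2 itself, 153 other genes were listed and 1 was called, Cyp4f14, with a median log2 difference of 0.04.

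Afp, alpha-fetoprotein, is the albumin of the fetal liver and yolk sac and is normally silenced around birth. It had 4 counts in the controls together and 199 in the knockouts, which were at 3.26, 5.54 and 1.34 CPM. The ratio was 62.9, with a counting interval of 24.2 to 233, and the log2 difference 5.92 ± 0.84. Its promoter is shown for the short half-site of the liver and pancreas factor HNF1, searched as GTTAAN on both strands of the 250 bases before the start. These letters were in 12 of the 52 higher promoters (23.1%) and in 2010 of 10428 listed promoters (19.3%). A longer form of the site was searched first and was replaced by this one after its result was known. The AP-1 site (TGANTCA, both strands) was in 13.5% of the higher promoters and 5.55% of all, and in 25 of the 227 promoters of genes under 1 CPM in the controls, and the metal response element (TGCGCNC or TGCACNC, both strands) was in 23.1% and 34.1%. The 150 bases before the start of Afp are given with its 2 matches in capitals.
Afp (chr5:90490564-90490713, plus strand): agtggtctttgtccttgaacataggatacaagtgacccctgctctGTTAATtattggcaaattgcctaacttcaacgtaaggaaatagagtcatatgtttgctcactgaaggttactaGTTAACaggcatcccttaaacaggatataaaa
A match of letters is a description of the sequence and does not show that a factor was bound there.

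The liver secreted protein list had 8 of its 20 listed genes called higher and 0 lower, with a median log2 difference of 1.38 and 17 of 20 above 0 (50.4% of all genes were above 0). The 8 were Serpina6, Proc, Serpina1c, Ambp, Serpinf2, Afp, Serpina10 and Agt. The count was 1 without control 3 or without knockout 1, 2 without control 2 and 5 without control 1, while the median stayed between 1.27 and 1.47. Serpina6, Serpina1c and Afp had control means of 0.161, 0.145 and 0.0464 CPM and were listed only because the knockouts were higher. The list's median and its share above 0 can be raised by this listing rule. Alb, serum albumin, was at 9.12, 9.06 and 10.3 CPM in the controls and at 14.2, 11.4 and 13.8 CPM in the knockouts (log2 0.47 ± 0.18, adjusted p 0.547), and 17 of the 37 genes, including Apoa1, Ahsg, Fga, Fgb, Hpx and Cps1, were not listed. The summed level of the listed genes was 793.5 to 901.3 CPM in the controls and 1054 to 1136 CPM in the knockouts, and a part of liver cells in it was not tested beyond these levels. In the coagulation list, 4 of 20 were called higher (median 0.63), and 0 without control 2, control 3 or knockout 1. Tfpi and Pros1, 2 further inhibitors of clotting, had log2 differences of 1.53 ± 0.38 and 0.76 ± 0.21 and did not pass.

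In the acute phase list, 2 of 9 were called higher, Cp (ceruloplasmin, the copper ferroxidase of plasma) and Lcn2 (a siderophore-binding lipocalin). Lcn2 was at 1.97, 1.32 and 1.88 CPM in the controls and at 5.51, 4.83 and 6.66 CPM in the knockouts (log2 1.71 ± 0.26). Complement had 0 of 19 called in edgeR (5 higher and 1 lower at an unadjusted p under 0.05, 1 by DESeq2), and Cfb, a protease of the alternative pathway, had a log2 difference of 1.57 ± 0.32 (adjusted p 0.181). Saa1, Saa2 and Saa3 were not listed.

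Enzymes of amino acid and small molecule metabolism formed a further group, with 7 of 27 listed genes called higher and 0 lower (median log2 difference 0.56). Without control 2, control 3 or knockout 1 the list had 3 called higher. Ces1g and Akr1cl, described below, had control means of 0.0352 and 0.146 CPM and were listed only because the knockouts were higher. The list's count and median can be raised by this listing rule. Mat1a, which makes S-adenosylmethionine, was at 23.3, 23.6 and 18.9 CPM in the controls and at 64.2, 64.7 and 70.4 CPM in the knockouts (log2 1.60 ± 0.18, adjusted p 0.0199). The 3 animals of each genotype lay close together and the groups did not overlap. Gnmt, the glycine methyltransferase that uses S-adenosylmethionine, had a log2 difference of -1.05 ± 0.23 and did not pass (adjusted p 0.216).

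Akr1cl, an aldo-keto reductase, was at 0.234, 0.117 and 0.0876 CPM in the controls and at 6.82, 11.03 and 5.28 CPM in the knockouts (log2 5.62 ± 0.48). Cyp2j5, a cytochrome P450 that acts on arachidonic acid, was at 1.34, 1.17 and 1.84 CPM in the controls and at 11.8, 16.01 and 12.0 CPM in the knockouts (log2 3.196 ± 0.27). Ces1g, a carboxylesterase, had 3 counts in the controls and 134 in the knockouts, a ratio of 56.5 with an interval of 18.9 to 277. Cyp4f14 and Fmo4 rose by 1.98 and 2.18. Moxd1, a copper-dependent monooxygenase that was in none of the lists, was at 0.968, 0.894 and 1.05 CPM in the controls and at 11.3, 9.21 and 10.2 CPM in the knockouts (log2 3.39 ± 0.21, adjusted p 0.00639).

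The metal-binding proteins Mt1 and Mt2 rose together. Mt1 was at 17.5, 24.4 and 19.4 CPM in the controls and at 82.3, 55.3 and 64.3 CPM in the knockouts (log2 1.72 ± 0.23, adjusted p 0.0444). Mt2 was at 1.20, 3.42 and 3.07 CPM in the controls and at 34.4, 21.6 and 16.8 CPM in the knockouts (log2 3.25 ± 0.46, adjusted p 0.04997). Of the zinc transporters, the exporter Slc30a1 was at 12.8 to 13.9 CPM in the controls and at 21.6 to 23.3 CPM in the knockouts (log2 0.76 ± 0.16, adjusted p 0.189), and Slc30a2 had a log2 difference of -1.04 ± 0.31, so the list as a whole had a median of -0.10 with 2 of 10 called. Heph, hephaestin, which oxidises iron for export, rose by 1.50 ± 0.25. Of the 6 fits that left out 1 library, Mt2 was called in 3, Mt1 in 1 and Heph in 0.

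Channels and transporters supplied 5 higher genes. Gabrp, the pi subunit of the GABA-A receptor, was at 1.60, 2.33 and 1.75 CPM in the controls and at 13.6, 15.2 and 12.9 CPM in the knockouts (log2 2.87 ± 0.23, adjusted p 0.00639). Kcnj10, a potassium channel, rose by 2.71 ± 0.34, Scn2b, a sodium channel subunit, by 1.99 ± 0.22, and Slc1a2, a glutamate transporter, by 3.07 ± 0.48. Pkd1l1, a polycystin of cilia, rose from 0.0334 to 0.0778 CPM to 0.946 to 1.48 CPM. Nalcn, the sodium leak channel, went the other way, from 3.61, 2.92 and 3.197 CPM to 0.711, 0.705 and 0.907 CPM (log2 -2.05 ± 0.26, adjusted p 0.0348).

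Il1rn, the antagonist of the interleukin-1 receptor, was at 0.634, 0.817 and 0.438 CPM in the controls and at 9.07, 10.4 and 6.78 CPM in the knockouts (log2 3.78 ± 0.32, adjusted p 0.00675). It was the 1 gene of 13 called by the main fit in the interleukin-1 and inflammasome list, whose median log2 difference was 0.65. At a control mean of 0.630 CPM, Il1rn was listed only because the knockouts were higher, which can raise the list's count and median. DESeq2 called 3 of the list higher and the model with the balance of long to short genes 6, against 162 and 245 of all genes. The Naip genes, cytosolic sensors of bacterial proteins, did not pass: Naip2 had a log2 difference of 1.51 ± 0.27 (adjusted p 0.120) and Naip5 one of 2.03 ± 0.45 (adjusted p 0.230). They are close copies of one another, so reads may be split between them. Cd244a, a receptor of natural killer cells, and Aoah, a leukocyte lipase that inactivates endotoxin, were higher at low levels, reaching 1.30 to 2.12 CPM and 1.21 to 2.25 CPM in the knockouts.

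Leukocyte and stromal marker lists lay above 0 with few calls. The median log2 difference was 1.18 for T and NK cell genes, 1.17 for B and plasma cell genes, 0.85 for dendritic cell and MHC class II genes, 0.37 for macrophage genes, 0.68 for fibroblast and stellate cell genes and 0.77 for extracellular matrix genes, and 0 genes of these lists were called in edgeR. At an unadjusted p under 0.05 there were 1, 3, 0, 3, 6 and 11 higher and, for macrophage genes, 1 lower, and DESeq2 called 1, 1, 0, 0, 1 and 1. Jchain, of the B and plasma cell list, had a control mean of 0.452 CPM and was listed only because the knockouts were higher. Such listing can raise a list's median. Lymphocyte levels varied by animal within a genotype. The summed B and plasma cell genes were at 38.1, 10.4 and 4.03 CPM in the controls and at 55.2, 41.1 and 26.2 CPM in the knockouts, and the summed T and NK cell genes at 34.1, 6.85 and 6.22 CPM against 58.8, 36.8 and 13.3 CPM. Control 1 thus overlapped with the knockouts in both. Leaving out 1 library moved the T and NK cell median between 0.42 and 3.06, the B and plasma cell median between 0.68 and 2.75 and the dendritic cell and MHC class II median between 0.40 and 1.80, each highest without control 1. The ranges were 0.33 to 0.61 for macrophage, 0.51 to 0.92 for fibroblast and stellate cell and 0.43 to 1.05 for extracellular matrix genes. Extracellular matrix genes summed to 7022 and 8845 CPM in knockouts 1 and 3 and to 3305 CPM in knockout 2, where the controls were at 3050 to 4401 CPM, so knockout 2 was within the control range. Their median was 0.30 when the model held the balance of long to short genes.

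**Figure D3:**
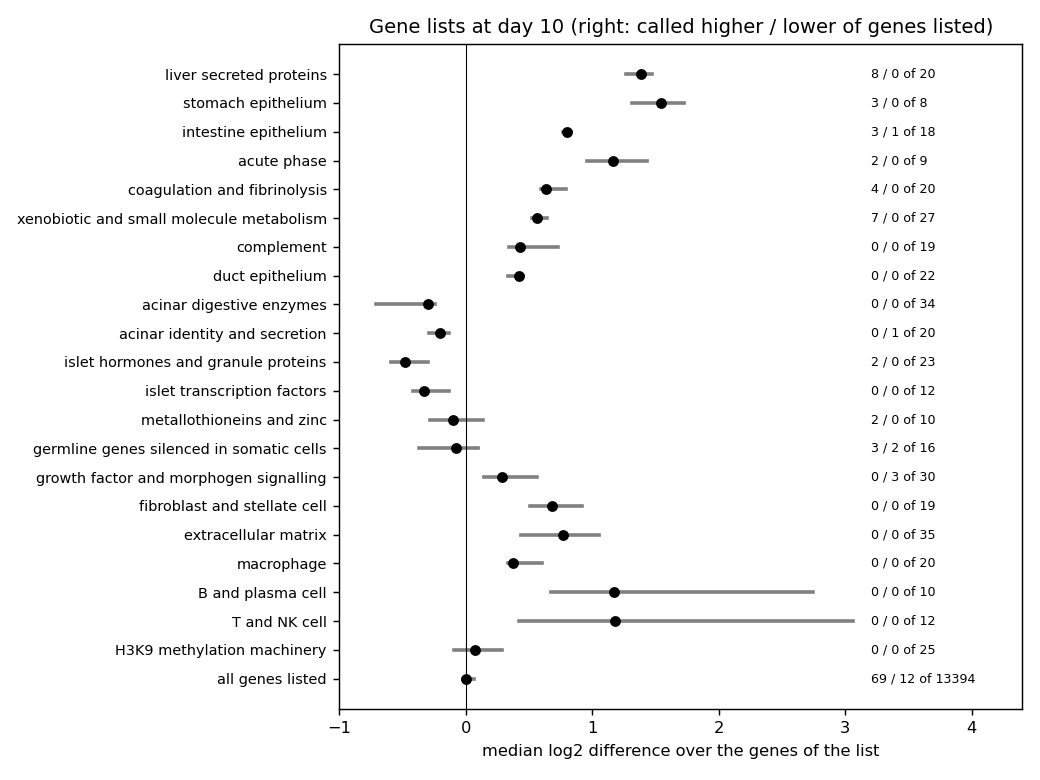
Median log2 difference (Ehmt2fl/fl minus Ehmt2+/+) over the listed genes of 21 gene lists and over all genes at day 10, with grey bars for the range of the median when each library was left out, and the genes called higher and lower at the right. Liver, stomach and intestine lists had medians of 1.38, 1.55 and 0.80, and the T and NK cell median ranged from 0.42 to 3.06.

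Germline genes are a class that Ehmt2 is known to keep silent in embryonic cells of the mouse. Of 54 genes of this kind 16 were listed, and of these 3 were called higher and 2 lower, with a median log2 difference of -0.08. Tcp11x2, a testis gene of the X chromosome, had 0 counts in all 3 controls and 166 in the knockouts, which were at 2.37, 4.13 and 1.73 CPM. Against a floor of 3 counts over the control group it was at least 69.9-fold higher. It has close relatives on the X chromosome with which it may share reads. Rhox5, a homeobox gene of testis and placenta, had 2 counts in the controls and 129 in the knockouts, a ratio of 81.5 with an interval of 22.1 to 680. Psma8, the proteasome subunit of spermatocytes, was at 0.1002, 0.117 and 0.307 CPM in the controls and at 3.02, 7.30 and 2.44 CPM in the knockouts (log2 4.61 ± 0.64). In these genes knockout 2 was the highest library. All 3 had control means under 1 CPM and were listed only because the knockouts were higher. The count of 3 higher genes can be raised by this listing rule. Spaca1, an acrosome protein, had a log2 difference of 3.45 ± 0.72 (adjusted p 0.195), and the meiotic genes Dazl, Ddx4, Sycp1 and Mael were not listed.

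The 2 genes of this list that fell were Tdh, a mitochondrial threonine dehydrogenase known from mouse embryonic stem cells, and Zp3, an egg coat protein. Tdh was at 88.8, 96.0 and 97.3 CPM in the controls and at 16.2, 18.4 and 31.5 CPM in the knockouts (log2 -2.09 ± 0.28), so it was well transcribed in the control pancreas. Zp3 was at 7.08, 10.7 and 8.58 CPM in the controls and at 2.02, 3.17 and 2.37 CPM in the knockouts (log2 -1.80 ± 0.27).

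Of 7 called genes of signalling, a grouping made after their values were seen, 4 were lower (Bmp3, Sostdc1, Gfra1 and Pde8b) and 3 higher (Pik3c2g, Rgs7bp and Trib3). Bmp3, a member of the BMP family that opposes its relatives, was at 12.8, 10.7 and 9.72 CPM in the controls and at 2.79, 1.41 and 3.71 CPM in the knockouts (log2 -2.06 ± 0.35, adjusted p 0.0995). Sostdc1, an inhibitor of BMP and Wnt signals, fell by 2.05 ± 0.29 on the log2 scale, and Gfra1, the GDNF co-receptor, by 1.81 ± 0.28. These 3 were the called genes of the 30 listed in the growth factor and morphogen list, of which 24 lay above 0 (median 0.28). Pde8b, a cyclic AMP phosphodiesterase, was at 9.28, 9.68 and 10.1 CPM in the controls and at 3.62, 3.98 and 4.85 CPM in the knockouts (log2 -1.22 ± 0.20), with little spread in either group. Even so, Pde8b was called in 0 of the 6 fits that left out 1 library, and Bmp3, Sostdc1 and Gfra1 in 1 each.

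The transcription factor Creb3l3, which acts in liver and intestine lipid metabolism, was at 5.14, 2.49 and 2.63 CPM in the controls and at 0.415, 0.453 and 0.710 CPM in the knockouts (log2 -2.67 ± 0.42). Ovol1, an epithelial zinc finger factor, was at 1.90, 1.67 and 1.49 CPM against 0.415, 0.453 and 0.434 CPM (log2 -1.95 ± 0.29). Igf2bp1, a fetal RNA-binding protein, and Foxj1, the regulator of motile cilia, rose by 2.02 ± 0.33 and 1.59 ± 0.27. Ovol1 and Igf2bp1 were called in 0 of the 6 fits that left out 1 library, and Creb3l3 and Foxj1 in 1 each. Of the 12 islet transcription factors listed 0 were called in edgeR (1 higher and 1 lower at an unadjusted p under 0.05, 0 by DESeq2, median -0.33), and Ptf1a, the acinar master regulator, had a log2 difference of 0.15 ± 0.22.

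**Figure D4:**
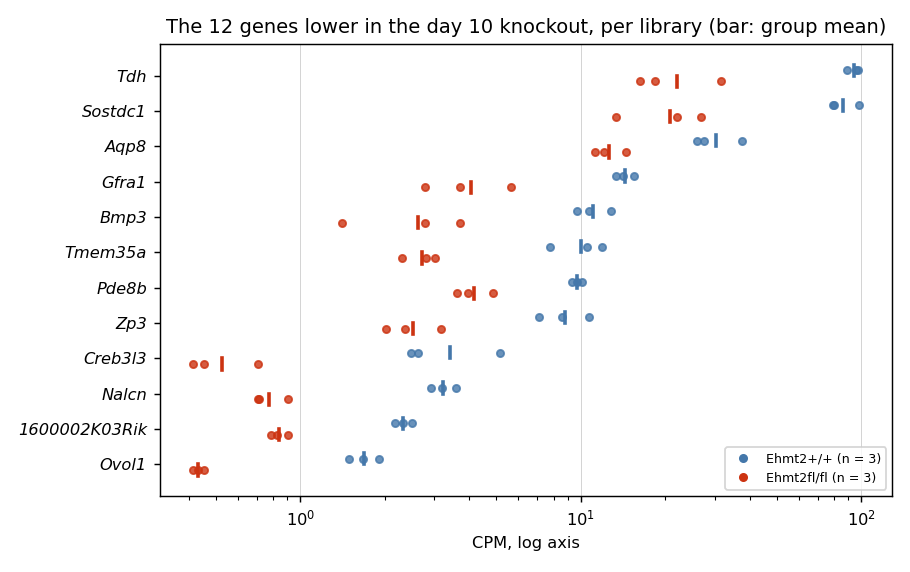
CPM (log axis) of the 12 genes called lower in each Ehmt2+/+ (blue) and Ehmt2fl/fl (red) library at day 10, with bars at the group means. The 3 knockout libraries lie below the 3 control libraries for every gene, from Tdh at 16.2 to 31.5 against 88.8 to 97.3 CPM down to Ovol1 at 0.415 to 0.453 against 1.49 to 1.90 CPM.

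The exocrine program itself gave few calls in the main fit. Of 34 listed digestive enzyme genes 0 passed in edgeR, with 4 higher and 10 lower at an unadjusted p under 0.05 and 6 by DESeq2, and their median log2 difference was -0.30. Without knockout 2 the median was -0.71 with 1 called lower, and with library totals alone it was -0.03 with 1 called in each direction. With the balance covariate 2 were called higher and 4 lower, against 245 and 110 of all genes. Ctrc, a chymotrypsin that controls trypsin activity, was at 14230, 24340 and 16430 CPM in the controls and at 5539, 7641 and 8999 CPM in the knockouts (log2 -1.31 ± 0.33, adjusted p 0.326). Cela2a, an elastase, had a log2 difference of -1.20 ± 0.32 (adjusted p 0.353). Both had non-overlapping groups and a wide spread.

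Gp2, the main glycoprotein of the zymogen granule membrane, was at 1879, 1948 and 1325 CPM in the controls and at 4589, 5306 and 4052 CPM in the knockouts (log2 1.44 ± 0.27, adjusted p 0.130). Cuzd1, another zymogen granule protein, was at 684.7, 781.7 and 768.1 CPM in the controls and at 236.0, 352.4 and 315.1 CPM in the knockouts (log2 -1.31 ± 0.23, adjusted p 0.109). These 2 genes of the same organelle lay in opposite directions, with non-overlapping groups in each, and neither passed. With the balance covariate the adjusted p was 0.00516 for Gp2 and 0.00351 for Cuzd1. Aqp8, an apical water channel of acinar cells, was the 1 called gene of 20 in the acinar identity and secretion list, at 37.7, 27.6 and 26.1 CPM in the controls and 11.2, 14.6 and 12.1 CPM in the knockouts (log2 -1.27 ± 0.22).

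The trypsinogen genes of chromosome 6 had 10 of 12 listed members above 0, a median of 0.52 and 0 calls (6 at an unadjusted p under 0.05 and 3 by DESeq2). With the balance covariate 4 were called higher. Gm10334 was at 1321, 1232 and 928 CPM in the controls and at 3784, 5368 and 2660 CPM in the knockouts (log2 1.76 ± 0.33, adjusted p 0.133). Prss2, the most abundant of them, had a log2 difference of 0.00 ± 0.25, and Try10 one of -0.79 ± 0.21. Try4, Try5, Prss1, Prss3 and Gm5771 had log2 differences of 0.59, 0.33, 0.82, 0.68 and 0.46. Members of this cluster are nearly identical in sequence, so the division of reads among them is uncertain.

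Endocrine genes gave 2 calls, both higher. Gal, the neuropeptide galanin, was at 12.5, 12.5 and 14.3 CPM in the controls and at 36.9, 42.8 and 34.7 CPM in the knockouts (log2 1.54 ± 0.18, adjusted p 0.0222). Chgb, the granule protein chromogranin B, was at 21.1, 17.5 and 24.4 CPM in the controls and at 145.0, 72.1 and 114.3 CPM in the knockouts (log2 2.40 ± 0.30). For both genes every knockout lay above every control. They were the 2 called genes of 23 in the list of islet hormones and granule proteins, whose median was -0.48, with 0 called lower in edgeR. At an unadjusted p under 0.05 there were 4 higher and 7 lower, and DESeq2 called 3 higher and 5 lower. Without control 2, control 3 or knockout 1 the list had 0 calls, and without control 1 it had 1 higher and 2 lower. Somatostatin (Sst) was at 59.1, 97.2 and 101.3 CPM in the controls and at 28.6, 34.4 and 36.8 CPM in the knockouts (log2 -1.37 ± 0.26, adjusted p 0.133), and Pyy and Ppy had log2 differences of -1.56 ± 0.31 (adjusted p 0.166) and -1.97 ± 0.52 (adjusted p 0.344). None of these 3 passed. Ins1 and Ins2 overlapped between the groups, at -0.84 ± 0.39 and -0.90 ± 0.45. Islet genes as a whole summed to 3530 to 8865 CPM in the controls and 3395 to 4510 CPM in the knockouts, and how many islets each sample held was not tested.

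Duct genes had 0 of 22 called (0 lower and 7 higher at an unadjusted p under 0.05, 1 by DESeq2) and 19 of 22 above 0, with a median of 0.42. Of all 13394 genes, 744 were higher and 391 lower at that unadjusted p in edgeR. Cftr, the chloride channel of ducts, was at 1.47, 1.52 and 1.45 CPM in the controls and at 3.38, 2.67 and 3.04 CPM in the knockouts (log2 1.03 ± 0.23, adjusted p 0.237). Bicc1, an RNA-binding protein of ducts, had a log2 difference of 1.01 ± 0.23 (adjusted p 0.261).

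Several called genes belong to none of these groups. Fndc7 was at 0.601, 0.311 and 0.263 CPM in the controls and at 7.53, 8.76 and 7.69 CPM in the knockouts (log2 4.30 ± 0.34). Obp2b, an odorant-binding lipocalin, was at 0.501, 0.467 and 0.920 CPM against 14.2, 15.1 and 10.6 CPM (log2 4.41 ± 0.34). Adtrp, an enzyme that splits hydroxy fatty acid esters, was at 0.2004, 0.0778 and 0.219 CPM against 3.32, 4.83 and 3.63 CPM (log2 4.52 ± 0.41). All 3 had every knockout at least 3 CPM above every control. Coch, an extracellular protein of the inner ear, rose by 4.28 ± 0.45, and Corin, the protease that activates atrial natriuretic peptide, by 2.55 ± 0.41. Trib3, already named among the signalling genes, is a pseudokinase induced by the integrated stress response. It rose by 1.55 ± 0.22 and was the 1 called gene of the 21 in the list of that response (median -0.06). Unfolded protein response, cell cycle and p53 target genes had 0 of 22, 0 of 30 and 0 of 24 called by edgeR, with 2, 1 and 2 at an unadjusted p under 0.05 and 0 by DESeq2 in each list. Of all 13394 genes, 1135 were under that unadjusted p in edgeR.

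The same genotypes were measured in untreated young adults (YA, 3 knockouts and 2 controls), in which 10096 genes were listed, so the day 10 calls could be set beside a later age in 1 model of 10077 genes. Normalisation in that model shifts CPM values from those above. Of the 81 day 10 calls, 31 were listed at both ages, 25 of them higher and 6 lower at day 10. In young adults 12 of the 25 were also called higher and 0 of the 6 called lower, where 40 of 10077 genes (0.397%) were called. The log2 difference lay on the same side of 0 at both ages for 24 of the 25 and for 6 of the 6. The 12 were Sftpd, Obp2b, Moxd1, Cldn2, Proc, Ambp, Plet1, Slc1a2, Tmem45a, Heph, Cyp4f14 and Cp. Moxd1, for instance, had a log2 difference of 3.41 ± 0.38 at day 10 and 3.78 ± 0.53 in young adults. Several of the 12 had young adult control means under 1 CPM, such as Obp2b at 0.482 and Cldn2 at 0.518. At such levels a gene is more readily listed where the knockouts are higher. The counts of 12 and 24 can be raised by this listing. The other 50, including Afp, Cblif, Gpa33 and Serpina6, were not listed in young adults and could not be compared.

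The difference between the ages was tested directly as an interaction, and 5 of 10077 genes passed (0.0496%). Mat1a, Gal and Serpina10 had smaller log2 differences in young adults (0.72, -0.10 and 0.05, against 1.62, 1.56 and 1.71 at day 10), and the interaction did not pass for them (adjusted p 0.699 for each). In this model of both ages Gal and Serpina10 did not pass at day 10 either (adjusted p 0.234 and 0.206). Sostdc1 did pass at day 10 in this model (-2.03 ± 0.31, adjusted p 0.0324). Its log2 difference in young adults was -0.33 ± 0.34, and the interaction did not pass (adjusted p 0.651). The number of interaction calls ranged from 0 to 33 as each of the 11 libraries was left out. It was 0 without PN knockout 1, PN knockout 3, YA control 2 or YA knockout 2, 1 without PN control 3, 2 without PN control 2 and 33 without YA control 1.

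**Figure D5:**
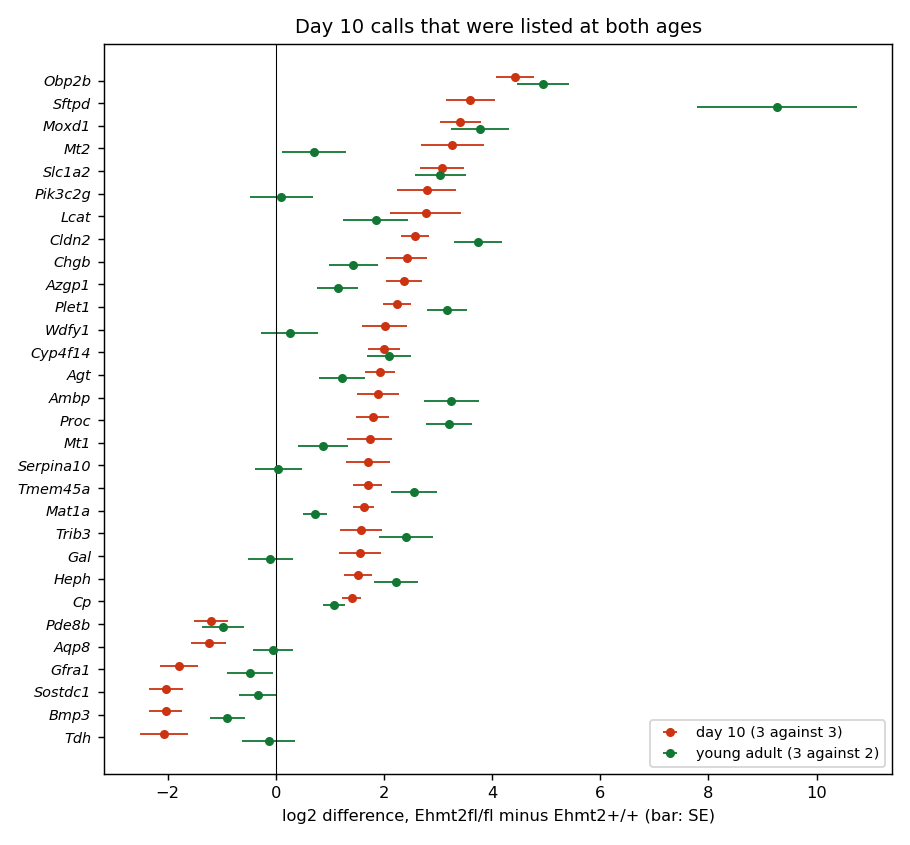
Log2 difference between Ehmt2fl/fl and Ehmt2+/+ pancreas (x axis, bars are SE) at day 10 (red, 3 against 3) and in young adults (green, 3 against 2) for 30 of the 31 genes called at day 10 and listed at both ages. Moxd1, for example, lies at 3.41 at day 10 and 3.78 in young adults, and Gal at 1.56 and -0.10.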

How the data were processed

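Poly(A) RNA of whole pancreas was sequenced by the authors from unstranded libraries (TruSeq RNA v2), so overlapping genes on opposite strands cannot be told apart. Per the paper's methods and the labels, reads were mapped to GRCm38.p6 and counted per gene, and edgeR 3.28.1 was used. The deposited counts are raw read counts per gene for genes above a low-expression filter. Depth, 14229980 to 30985177 counts, is the sum over listed genes. The files also hold RPKM values, fold changes, p-values and FDR of the authors' own test, which were not used. The deposited gene lengths were used only for the balance covariate, the difference between long and short genes within each library. Other columns held no further samples.

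The 6 day 10 libraries alone were fitted by the quasi-likelihood F-test of edgeR 4.0.16 (R 4.3.3, TMM factors). Adjusted p is Benjamini-Hochberg over all 13394 genes, two-sided, and genes were called at adjusted p below 0.1 where groups differed 2-fold or more. CPM are TMM-normalised. Ages were compared in a model of 11 libraries with an interaction. Alternatives were RLE factors, library totals, other filters and thresholds, DESeq2 1.42.0, the balance covariate and leaving out each library. The procedure was tested on simulated counts. The members and the 52 gene lists were chosen with earlier results of these data known. Named genes were Ehmt2, the called genes with the lowest p in each direction, called list members, the next members of described lists by p and the trypsinogen and metallothionein genes; genes of the marker lists that were low or not listed were named as well. Groupings of called genes by role were made after their values were seen. Positions came from GENCODE vM21, in which 13381 of 13394 genes were found, and promoters from RefSeq. For near-zero genes, ratios have 95% exact counting intervals, and a group at 0 was set to a floor of 3 counts in all. Results of 1 called gene are not reported here.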

Additional observations from a re-analysis of the deposited data

Results flagged for a closer look

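Under the same contrast, 5 genes had a genotype difference that was not the same at both ages by the interaction test. For 4 trypsinogen genes the difference at day 10 was the smaller one: the day 10 minus young adult value was -4.81 ± 0.57 for Gm10334, -4.21 ± 0.51 for Gm5771, -3.49 ± 0.47 for Prss3 and -3.56 ± 0.49 for Prss1. Gm10334 had means of 663 and 2294 CPM at day 10 and 77.0 and 7449 CPM in young adults, in controls and knockouts. Its knockout mean was the higher one at both ages, with a wider gap in young adults. The young adult controls were 2 animals, and these trypsinogen genes are nearly identical in sequence.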

How the results depend on the processing

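Against 81 called genes (69 higher, 12 lower), library totals alone gave 144 (135 higher), with the median of all genes shifted by 0.27 and 93.8% of calls higher against 85.2%. DESeq2 gave 216 (162 and 54, 75% higher), the balance covariate 355 (245 and 110, 69% higher), the model of both ages 22 (19 and 3, over fewer genes) and an adjusted p under 0.05 gave 51 (4 lower). RLE factors gave 77, and TMM without enzyme and mitochondrial genes, filterByExpr and no minimum difference 81 each. Leaving out 1 library gave 16 to 90 calls, 16 to 83 higher and 0 to 9 lower. For the age difference, 5 became 31 by DESeq2 and 0 to 33 as libraries were left out, where a lone YA control was assumed to vary like the other groups. Ehmt2 changed sign, never passing, with library totals alone (0.19), without control 1 (0.13) and without knockout 2 (0.080), within a range of -0.18 to 0.13 over libraries left out. The cause of these shifts was not tested, and the fits without a library also had fewer samples. Sex as a covariate was not run, since the genes used to read it were not listed. No paired analysis was possible because the labels give the genotypes no shared replicate numbers.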
